A study of Mus musculus with 15 samples.

Results

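Wnt-C59 was compared with vehicle in the skin of mice with chronic graft-versus-host disease. The comparison holds 7 of the 15 RNA libraries of the series, chosen by their labels alone: 3 from allogeneic recipients given vehicle and 4 from allogeneic recipients given Wnt-C59. All mice had received a bone marrow transplant and were dosed by daily oral gavage from day 21 to day 49. Vehicle was 0.4% methylcellulose, and Wnt-C59 was given at 5 mg/kg. The labels do not say whether mice given Wnt-C59 also received methylcellulose. Syngeneic recipients given the same vehicle (n = 4) serve below as reference levels without a test. A further 4 libraries, assigned to Wnt-C59 with belumosudil at 150 mg/kg, were not compared. They entered the shared fit, with its filter, scaling and estimate of spread. Strain, sex and age are not given in the sources used here, and nothing says whether each library is 1 animal, so p-values measure only the spread between these samples.

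Wnt-C59 is a small-molecule inhibitor of porcupine (Porcn), the enzyme of the endoplasmic reticulum that attaches a lipid to Wnt ligands. Without this lipid, Wnt ligands are not carried to the cell surface by Wls and do not engage Frizzled receptors and Lrp co-receptors, which otherwise stabilise beta-catenin and switch on targets such as Axin2 and Lef1. In skin, Wnt signals drive the growth phase of the hair follicle and act on dermal fibroblasts. In sclerodermatous graft-versus-host disease, donor immune cells attack the skin, the dermis thickens with collagen, and follicles, sebaceous glands and dermal fat are damaged.

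Total estimated counts ran from 16258690 to 18008884 in the vehicle libraries and from 18992866 to 21596834 in the Wnt-C59 libraries. Levels are given in CPM, counts scaled to the size of the library. Libraries of a group correlated at r = 0.939 to 0.975 across genes, and libraries of different groups at 0.826 to 0.911. The groups also differed in technical features that follow the drug, so a treatment of the mice and a difference in library making or counting cannot be told apart. The share of non-whole values among detected genes was 31.1 to 34.4% in vehicle and 52.4 to 60.6% in Wnt-C59 libraries, and Malat1, an abundant nuclear RNA, stood at 2797 to 3501 CPM against 65.0 to 124.7 CPM. Xist, another long nuclear RNA and a sex-linked gene, was at 938 to 1268 CPM under vehicle, 148 to 198 CPM under Wnt-C59 and 500 to 1618 CPM in syngeneic skin (log2 change -2.65, adjusted p = 2.7e-05, and -1.15, adjusted p = 0.0013, after the trend described next was removed). Of 5 sex-linked genes checked, Xist alone was called, with and without that trend. Nuclear RNAs did not all fall: of 6 long non-coding ones tested, only Malat1 and Kcnq1ot1 were called, both lower. The median log2 change of the 6 was -0.39, and 0.35 with that trend removed. Malat1 and Kcnq1ot1 were still called lower with it removed. Malat1 changed by -3.94 (adjusted p = 4e-07) against -5.06 as scaled, and Kcnq1ot1 by -1.36 (0.0086) against -2.75. For non-whole values and Malat1, the 4 libraries assigned to the combination lay with the Wnt-C59 libraries (44.8 to 55.9% and 71.9 to 135.7 CPM), and the syngeneic libraries with those of vehicle (32.0 to 33.9% and 1071 to 2979 CPM). GC-rich transcripts were shifted up and GC-poor, long transcripts down: the median log2 change was -0.91 in the fifth of genes with the lowest GC content and 0.75 in the fifth with the highest (Spearman's rho across genes 0.504 for GC and -0.251 for length). Most results are therefore also given from a fit in which this trend was removed from every library ("trend removed"), where the correlations were 0.013 and -0.027. All CPM values, those of syngeneic skin included, are as scaled. A level of Wnt-C59 libraries above or below syngeneic skin may therefore carry the same technical difference, and this was not tested. Whether values with the trend removed still carry part of that difference was not tested either.

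**Figure D1:**
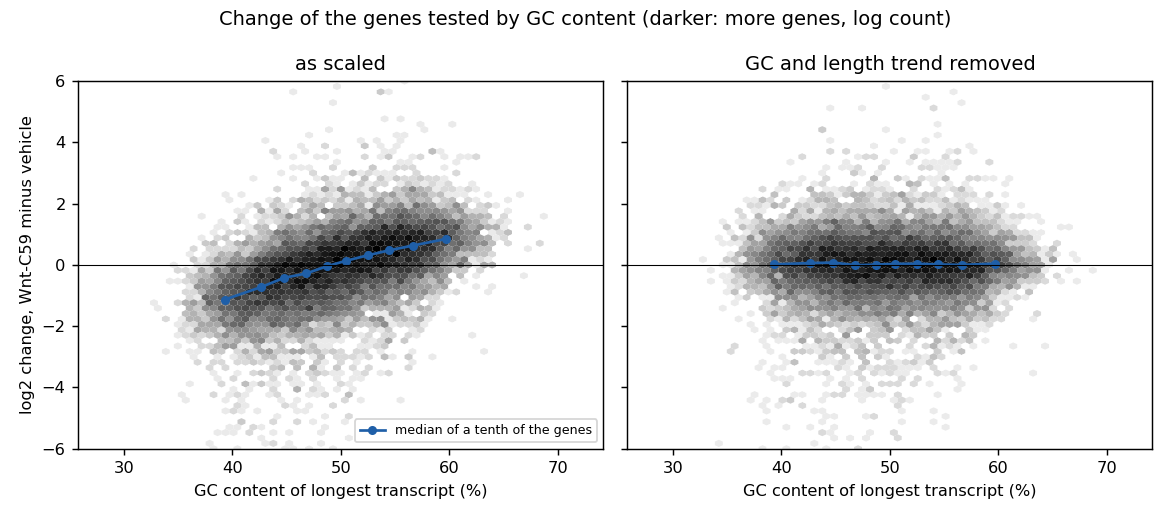
Log2 change (Wnt-C59 minus vehicle) of the genes tested against the GC content of the longest transcript, as scaled (left) and with the GC and length trend removed (right); darker cells hold more genes, blue points are medians of equal bins of genes, and values beyond 6 in either direction are not drawn. The medians climb with GC content on the left and lie near 0 on the right.

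Single libraries stood apart as well. Wnt-C59 library 4 held 22 genes at 5 CPM or more and at least 10 times the level of any other library of the vehicle, syngeneic and Wnt-C59 groups, and most of the leading ones were liver genes such as Alb, the gene for serum albumin (0.718, 2.18, 1184 and 19.4 CPM in Wnt-C59 libraries 1, 2, 4 and 5). Vehicle library 1 held 16 such genes, led by neutrophil and inflammatory genes (S100a9, Cxcl2, Il1b), and Wnt-C59 library 5 held 6, led by slow muscle genes (Myh7, Tnni1). The score of 15 adipocyte genes (mean log2 CPM) did not overlap between the groups, at 4.60 to 6.21 in vehicle and 6.49 to 7.79 in Wnt-C59 libraries, so this score moves with the treatment. A fit with the score as a covariate ("adipocyte covariate") called 2788 genes (7.85% higher and 7.09% lower), and calls lost under it are named below. A lost call need not mean a smaller change. Under the covariate the log2 change of Cd3e was -1.75 against -1.44 and that of Col1a1 1.84 against 1.93, while that of Krt6a was -1.19 against -2.53. List medians went from -1.10 to -1.13 for T cell genes and from -3.23 to -0.69 for activated keratinocyte genes. Some medians changed sign, such as that of neutrophil genes (from -3.20 to 1.91) and that of acute-phase genes (from -0.96 to 0.29). The part of fat in these results was not tested otherwise. Keratinocyte markers (Krt5, Krt14, Krt1 and Krt10, summed) were high in both groups, at 20200 to 28300 and 24300 to 40400 CPM. In bulk tissue, fewer cells of a type and less RNA per cell cannot be told apart.

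Of 18651 genes tested, 9481 (50.8%) were called at an adjusted p under 0.05, with 4586 (24.6%) higher and 4895 (26.2%) lower under Wnt-C59. With the trend removed 7123 (38.2%) were called, 19.8% higher and 18.4% lower, and 5314 genes (56.0% of the first calls) were called in the same direction in both fits. The adjusted p is that of edgeR's quasi-likelihood test after Benjamini-Hochberg adjustment over all genes tested. These shares are the background against which the counts of list members are read. The libraries of the groups did not overlap for 53.5% of all genes tested. Nor did they for any gene below whose values are listed, apart from Porcn, Wls, Axin2, Lef1 and Krt25. CPM values are listed for vehicle libraries 1, 2 and 3 and then for Wnt-C59 libraries 1, 2, 4 and 5, and a log2 change is that of Wnt-C59 minus vehicle with its standard error.

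**Figure D2:**
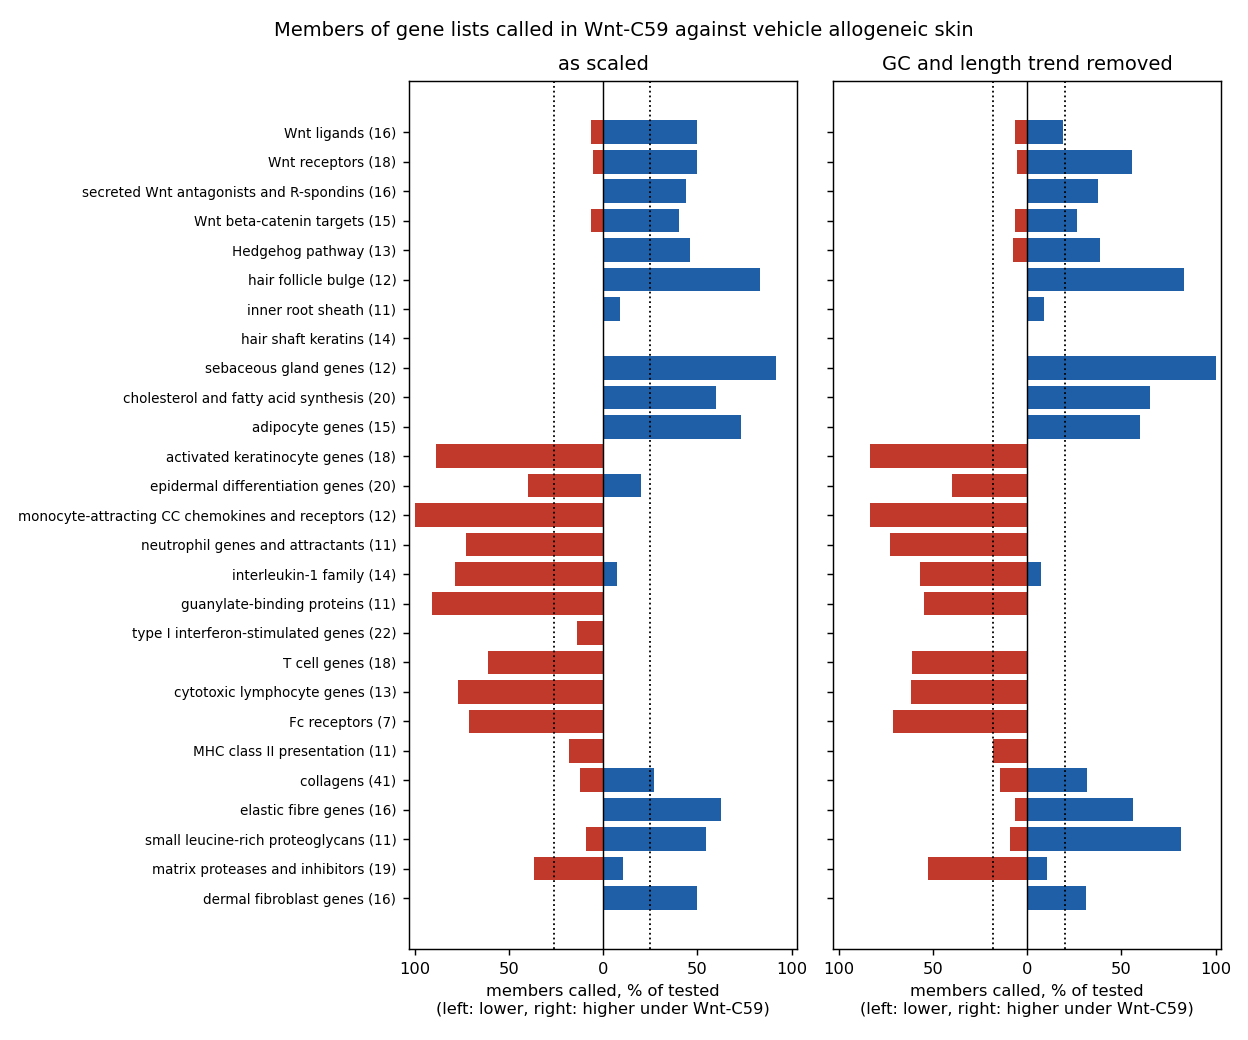
Share of the tested members (number in brackets) of 27 gene lists that were called higher (blue, right) or lower (red, left) under Wnt-C59, as scaled and with the GC and length trend removed. Dotted lines mark the shares over all genes (24.6% and 26.2%, and 19.8% and 18.4%); bulge and sebaceous lists lie far to the right, and activated keratinocyte and CC chemokine lists far to the left.

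The lists of Wnt ligands, of receptors, and of antagonists and R-spondins had more members called higher than lower under Wnt-C59. Several classical readouts of beta-catenin were not called. Of 16 Wnt ligands tested, 8 rose and 1 fell (median log2 change 1.06), but only 3 were higher with the trend removed and 1 with the adipocyte covariate. Of 18 receptors, 9 rose and 1 fell (10 and 1 with the trend removed, 4 and 0 with the adipocyte covariate). Fzd2, a Frizzled receptor, stood at 12.2, 19.6 and 15.6 CPM under vehicle and 65.0, 86.4, 63.3 and 56.0 CPM under Wnt-C59, without overlap (log2 change 2.10, SE 0.23, adjusted p = 1.3e-05, trend removed 1.48). Fzd8 (log2 change 1.73, SE 0.19, adjusted p = 1.3e-05, trend removed 1.88) and Fzd1 (log2 change 1.5, SE 0.23, adjusted p = 0.00013, trend removed 1.04) rose as well, whereas the co-receptor Lrp6 fell (log2 change -1.56, SE 0.23, adjusted p = 9.6e-05, trend removed -0.68). Among ligands, Wnt5b stood at 0.851, 1.74 and 1.35 CPM under vehicle and 5.23, 4.02, 7.03 and 4.37 CPM under Wnt-C59. Wnt5b changed by 1.97 on the log2 scale (SE 0.34, adjusted p = 0.00033), and by 1.04 with the trend removed. Wnt6 was at 2.25, 6.59 and 4.23 CPM under vehicle and 10.2, 17.3, 22.1 and 16.8 CPM under Wnt-C59. Wnt6 changed by 1.93 on the log2 scale (SE 0.41, adjusted p = 0.0015), and by 0.96 with the trend removed. Both ligands were of low level, and in both all Wnt-C59 libraries lay above all vehicle libraries. Wnt3a (log2 change 1.30, adjusted p = 0.00069) and Wnt7b (1.50, 0.001) were called only as scaled, with 0.55 (0.11) and 0.72 (0.074) once the trend was removed.

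The drug's own target, Porcn, stood at 51.8, 18.9 and 54.1 CPM under vehicle and 29.6, 13.2, 17.2 and 22.2 CPM under Wnt-C59, and the groups overlapped because vehicle library 2 lay below 2 Wnt-C59 libraries. Its fall (log2 change -1.01, SE 0.33, adjusted p = 0.019, trend removed -1.66) was lost without vehicle library 1 (adjusted p = 0.088), vehicle library 3 (0.1), Wnt-C59 library 2 (0.054) or Wnt-C59 library 4 (0.052), in the 7 libraries alone (0.066) and with the adipocyte covariate (0.85). Wls, the carrier of lipid-bearing Wnts, was at 106, 107 and 112 CPM under vehicle and 121, 107, 89.4 and 111 CPM under Wnt-C59 and was not called (-0.02, SE 0.19, adjusted p = 0.95), although with the trend removed it was higher (0.69, adjusted p = 0.0063). Tmed5, a carrier of cargo in the secretory route, fell (log2 change -2.28, SE 0.23, adjusted p = 7.8e-06, trend removed -0.86), and Gpc4, a glypican, rose (log2 change 1.004, SE 0.21, adjusted p = 0.0011, trend removed 0.73). Of the 8 genes of Wnt lipidation and secretion tested, 2 rose and 3 fell, with the trend removed 3 rose and 3 fell, and with the adipocyte covariate 0 rose and 1 fell.

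Among 15 beta-catenin targets, 6 rose and 1 fell (4 and 1 with the trend removed, 1 and 0 with the adipocyte covariate), with a median log2 change of 1.01. Axin2, the usual readout of beta-catenin activity, stood at 20.2, 38.8 and 35.6 CPM under vehicle and 71.0, 80.3, 31.4 and 24.9 CPM under Wnt-C59. The Wnt-C59 libraries split around the vehicle values, 1 and 2 above and 4 and 5 within their range, and the gene was not called (0.72, SE 0.38, adjusted p = 0.13), except without Wnt-C59 library 5 (0.95, adjusted p = 0.037). Lef1, the partner of beta-catenin in the follicle, was low in both groups at 3.89, 4.79 and 5.64 CPM under vehicle and 5.95, 2.98, 3.18 and 2.71 CPM under Wnt-C59, against 57.0 ± 10.3 CPM in syngeneic skin, and was not called (-0.37, SE 0.73, adjusted p = 0.71). Lgr5, a Wnt target and stem cell receptor, was likewise not called (0.62, SE 0.59, adjusted p = 0.41). Nkd1, a feedback inhibitor, rose from 5.41, 10.6 and 6.54 CPM under vehicle to 24.4, 27.7, 24.3 and 19.1 CPM under Wnt-C59 (log2 change 1.67, SE 0.26, adjusted p = 0.00016, trend removed 1.40), and so did Rnf43, which removes Frizzled receptors (log2 change 1.01, SE 0.21, adjusted p = 0.001, trend removed 0.54), and Notum, which strips the lipid from Wnts (log2 change 2.09, SE 0.63, adjusted p = 0.013, trend removed 1.15, not called). The call of Notum was lost with the trend removed (adjusted p = 0.15) and without vehicle library 1 (0.061). Of 16 Wnt antagonists and R-spondins, 7 rose and 0 fell (6 and 0 with the trend removed, 0 and 0 with the adipocyte covariate, 11 and 0 without vehicle library 2). Among the rises were Apcdd1 (log2 change 1.83, SE 0.29, adjusted p = 0.00018, trend removed 2.54), Sostdc1 (log2 change 1.78, SE 0.35, adjusted p = 9e-04, trend removed 1.93) and Dkk3 (log2 change 0.70, SE 0.18, adjusted p = 0.005, trend removed 0.49). The 7 included the R-spondins Rspo1 and Rspo4. Apcdd1 and Wif1 also count among the beta-catenin targets that rose.

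**Figure D3:**
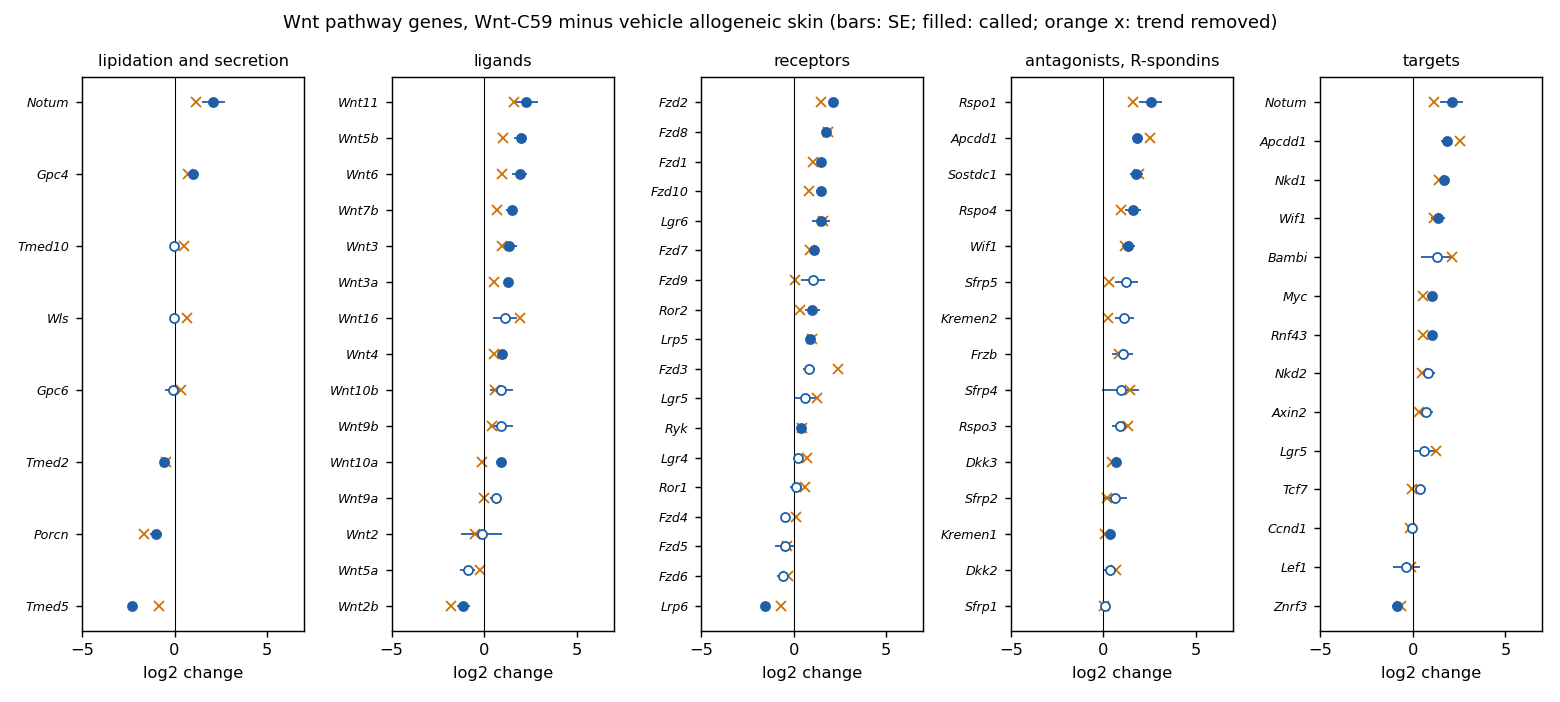
Log2 change of Wnt pathway genes whose vehicle and Wnt-C59 means sum to at least 1 CPM, by role. Blue points with SE bars are the fit as scaled (filled where called), and orange crosses have the GC and length trend removed; most receptors and antagonists lie right of 0, while Porcn, Tmed5 and Lrp6 lie left of it.

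Inside the cell, Tcf7l1, a transcription factor of resting follicle stem cells that binds Wnt targets, stood at 6.32, 7.48 and 8.57 CPM under vehicle and 31.5, 48.4, 41.4 and 31.1 CPM under Wnt-C59. Tcf7l1 changed by 2.35 on the log2 scale (SE 0.23, adjusted p = 6.9e-06), and by 1.49 with the trend removed. Dvl2, which relays the receptor signal, rose (log2 change 1.52, SE 0.17, adjusted p = 1.1e-05, trend removed 1.10) and Gsk3b, the kinase that marks beta-catenin for destruction, fell (log2 change -1.29, SE 0.15, adjusted p = 1.7e-05, trend removed -0.47). Over the 13 genes of the destruction complex and its effectors, 6 rose and 3 fell as scaled, 2 rose and 5 fell with the trend removed, and 4 rose and 2 fell with the adipocyte covariate. Of 12 planar polarity and non-canonical genes, 2 rose and 4 fell (2 and 2 with the trend removed, 1 and 2 with the adipocyte covariate), with Vangl1 among the former (log2 change 0.78, SE 0.16, adjusted p = 0.00094, trend removed 1.27). The kinases Rock1 and Rock2 fell by 2.19 and 1.61 on the log2 scale (adjusted p = 8.8e-06 and 9.4e-06), but with the trend removed Rock1 fell by 0.89 and Rock2 by 0.32, the latter no longer called (0.08). With the adipocyte covariate the calls of Porcn, Gpc4, Wnt3a, Wnt6, Wnt7b, Lrp6, Apcdd1, Sostdc1, Dkk3, Nkd1, Notum and Rnf43 were lost, with adjusted p between 0.052 (Lrp6) and 0.85 (Porcn), and Fzd2 changed by 1.44.

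Calls among hair follicle genes differed by compartment. Stem cell genes of the bulge, the resting niche of the follicle, were far higher under Wnt-C59: of 12 tested, 10 rose and 0 fell in both fits (median log2 change 2.06, and 1.66 with the trend removed), and 7 rose with the adipocyte covariate. Krt15, the keratin that marks bulge cells and part of the basal layer, stood at 64.2, 162 and 120.1 CPM under vehicle and 3428, 4669, 5353 and 3146 CPM under Wnt-C59. Its lowest Wnt-C59 library was at 3146 CPM and its highest vehicle library at 162 CPM (log2 change 5.17, SE 0.42, adjusted p = 2e-06, trend removed 4.53), and syngeneic skin held 1372 ± 653 CPM. Foxc1, a factor of stem cell quiescence, was at 4.13, 9.16 and 7.89 CPM under vehicle and 84.1, 84.4, 91.3 and 68.0 CPM under Wnt-C59. Foxc1 changed by 3.54 on the log2 scale (SE 0.3, adjusted p = 2.3e-06), and by 3.31 with the trend removed. Sox9, which maintains follicle stem cells, was at 14.2, 17.1 and 18.3 CPM under vehicle and 61.8, 64.9, 56.1 and 42.2 CPM under Wnt-C59. Sox9 changed by 1.77 on the log2 scale (SE 0.22, adjusted p = 3.1e-05), and by 1.83 with the trend removed. Fgf18, a signal of the resting phase made in the bulge, rose from under 1 CPM in each vehicle library to 16.4 to 35.4 CPM (log2 change 6.13, SE 0.7, adjusted p = 1.7e-05, trend removed 5.56, 8.07 without vehicle library 2, and 6.76 by limma-voom), above the 2.17 ± 0.613 CPM of syngeneic skin.

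Structural genes of the growing hair were low beside syngeneic skin in both groups: the score of the hair shaft keratins (mean log2 CPM) was -2.72 to -2.62 under vehicle and -1.89 to -1.70 under Wnt-C59, against 3.88 to 7.82 in syngeneic skin. Of 14 hair shaft keratins and 56 keratin-associated proteins tested, 0 were called in either direction, and of 11 inner root sheath genes 1 was called (Gata3, log2 change 1.16, SE 0.26, adjusted p = 0.002, trend removed 1.04). In the same order, 1 of 14, 0 of 56 and 2 of 11 had an unadjusted p under 0.05. The median log2 changes of the 3 lists were 2.12, 0 and 0, and 1.58, 0 and 0 with the trend removed. The median of the hair shaft keratins was thus close to that of the bulge genes (2.06 and 1.66), from levels far lower. The score of the keratin-associated proteins was -3.24 to -3.21 under vehicle and -3.06 to -3.02 under Wnt-C59, near the limit of detection, against 0.89 to 6.85 in syngeneic skin. In the 4 combination libraries, which entered the shared spread, Krt71 ran from 0.659 to 15100 CPM and Krt28 from 1.28 to 1310 CPM. The absence of calls therefore cannot show that these genes did not change. DESeq2 called 5, 17 and 2, of which 5, 14 and 2 were higher, and limma-voom called 0, 0 and 1. Krt71, an inner root sheath keratin, stood at 0, 0.12 and 0.169 CPM under vehicle and 0.564, 0.595, 0.677 and 0.76 CPM under Wnt-C59, and Krt25 at 0.182, 0.419 and 0 CPM under vehicle and 0, 0, 0 and 0.095 CPM under Wnt-C59, against 4819 ± 2117 CPM and 3261 ± 1501 CPM in syngeneic skin. Krt28 stood at 0.0607, 0 and 0 CPM under vehicle and 2.51, 3.42, 4.32 and 1.52 CPM under Wnt-C59 and Krt32, a hair shaft keratin, at 0, 0.479 and 0.113 CPM under vehicle and 4.3, 7.93, 5.99 and 3.37 CPM under Wnt-C59. The Wnt-C59 libraries lay above the vehicle libraries for Krt28 and Krt32 without passing the test (adjusted p = 0.08 and 0.055). They and Krt71 did pass in the 7 libraries alone (4e-04, 0.0015 and 0.011) and without the 4 combination libraries (0.00011, 0.0017 and 0.01). Krt28 and Krt32 also passed under DESeq2 (0.00054 and 0.0015). Shh, made by the matrix of a growing follicle, was at or below 0.104 CPM in all 7 libraries and at 21.8 ± 6.46 CPM in syngeneic skin.

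Signals that set the follicle's cycle were partly higher. Of 13 Hedgehog pathway genes 6 rose and 0 fell (5 and 1 with the trend removed, 2 and 0 with the adipocyte covariate). The Hedgehog-binding protein Gas1 was at 60.9, 56.3 and 68.7 CPM under vehicle and 194, 197, 182 and 162 CPM under Wnt-C59. Gas1 changed by 1.57 on the log2 scale (SE 0.15, adjusted p = 6e-06), and by 0.74 with the trend removed. Boc, a co-receptor of the same pathway, rose too (log2 change 1.29, SE 0.2, adjusted p = 0.00012, trend removed 0.87). The target gene Gli1 stood at 5.83, 10.5 and 9.3 CPM under vehicle and 31.4, 31.3, 32.1 and 28.4 CPM under Wnt-C59, and its rise (1.85, adjusted p = 0.0065) was not called with the trend removed (0.068) or the adipocyte covariate (0.28). Of 15 FGF and BMP signals 6 rose and 1 fell (6 and 0 with the trend removed, 4 and 1 with the adipocyte covariate), with the resting-phase ligands Bmp6 (log2 change 1.90, SE 0.29, adjusted p = 0.00012, trend removed 1.19) and Bmp2 (log2 change 1.82, SE 0.3, adjusted p = 0.00022, trend removed 1.52) and the BMP antagonist Fst (log2 change 1.63, SE 0.29, adjusted p = 0.00035, trend removed 2.00) among the rises. Gata3 was not called with the adipocyte covariate (adjusted p = 0.55), and Krt15 changed by 4.57.

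Of the gene lists, sebaceous gland genes had the largest median rise. Of 12 tested, 11 rose and 0 fell (12 and 0 with the trend removed, 9 and 0 with the adipocyte covariate), with a median log2 change of 6.42 against 0 over all genes. Fa2h, which hydroxylates fatty acids for sebum and skin lipids, stood at 1.7, 3.23 and 2.59 CPM under vehicle and 437, 429, 368 and 316 CPM under Wnt-C59, and no Wnt-C59 library was below 316 CPM (log2 change 7.27, SE 0.43, adjusted p = 1e-07, trend removed 6.62). Awat1, which makes wax esters, was at 0, 0.239 and 0.338 CPM under vehicle and 86.0, 98.5, 83.0 and 77.1 CPM under Wnt-C59. Awat1 changed by 8.74 on the log2 scale (SE 0.57, adjusted p = 3.6e-07), and by 8.58 with the trend removed. Scd3, the sebocyte fatty acid desaturase, was at 1.09, 0.659 and 2.37 CPM under vehicle and 193, 344, 457 and 168 CPM under Wnt-C59. Scd3 changed by 7.71 on the log2 scale (SE 0.56, adjusted p = 1.1e-06), and by 7.67 with the trend removed. Syngeneic skin held 153 ± 61.6 CPM of Fa2h, 35.9 ± 7.65 CPM of Awat1 and 105 ± 28.6 CPM of Scd3, and every Wnt-C59 library lay above every syngeneic library for these 3 genes. Other members stood otherwise. Mc5r, the melanocortin receptor of sebocytes, was at 1.82, 4.67 and 1.92 CPM under vehicle and 14.8, 17.3, 14.5 and 13.0 CPM under Wnt-C59, below every syngeneic library (28.4 to 42.4 CPM). Mc5r changed by 2.41 on the log2 scale (SE 0.37, adjusted p = 0.00012), and by 2.96 with the trend removed. Elovl3, a fatty acid elongase, was at 38.5 to 82.1 CPM under Wnt-C59, within the syngeneic range of 19.9 to 112 CPM.

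Of the 12 genes named for the largest rises, 3 were the liver genes Alb, Ttr and Hamp2, the first 2 carried by Wnt-C59 library 4. Their log2 changes of 10.28, 9.56 and 8.98 were 4.94, 4.32 and 7.6 without that library, and limma-voom called none of the 3 (adjusted p = 0.37, 0.17 and 0.063). The call of Ttr was also lost without vehicle library 1 (0.058) or 3 (0.051), and the change of Hamp2 was 11.04 without vehicle library 2. With the adipocyte covariate the 3 changes were 16.32, 18.75 and 11.76. Hamp2 was also present where Alb was scarce: syngeneic libraries held 0.882 to 12.7 CPM of Hamp2 and 0.371 to 0.824 CPM of Alb. Wnt-C59 libraries held 1.54 to 37.0 CPM of Hamp2. Others of the 12 were enzymes and serpins. Ces4a, a carboxylesterase, was at 0, 0.18 and 0.169 CPM under vehicle and 111, 142, 95.4 and 86.4 CPM under Wnt-C59. Ces4a changed by 9.78 on the log2 scale (SE 0.58, adjusted p = 1.8e-07), and by 9.40 with the trend removed. Pnpla5, a lipase, was at 0, 0.299 and 0.113 CPM under vehicle and 80.8, 92.7, 87.3 and 74.4 CPM under Wnt-C59. Pnpla5 changed by 9.19 on the log2 scale (SE 0.56, adjusted p = 1.8e-07), and by 8.52 with the trend removed. Aadacl4, a relative of arylacetamide deacetylase, was at 0, 0.299 and 0.113 CPM under vehicle and 44.8, 62.6, 62.3 and 44.9 CPM under Wnt-C59. Aadacl4 changed by 8.54 on the log2 scale (SE 0.58, adjusted p = 5e-07), and by 8.89 with the trend removed. All 3 were near the limit of detection in every vehicle library and above 40 CPM in every Wnt-C59 library. Cyp2j12, a cytochrome P450, and Serpina3j, a serpin of a family of near-identical copies, had no count in any vehicle library. Taking 3 counts per library as the floor, they were at least 63-fold and at least 105-fold higher, at 11.1 and 18.6 CPM on average under Wnt-C59. Serpina3b (log2 change 8.93, SE 0.64, adjusted p = 8.9e-07, trend removed 8.91), the channel protein Panx3 (log2 change 9.01, SE 0.77, adjusted p = 2.4e-06, trend removed 9.24) and Serpinb6e (log2 change 8.52, SE 0.73, adjusted p = 4.1e-06, trend removed 9.14) rose in the same range. Because these genes are close to 0 under vehicle, single vehicle libraries move the estimate: without vehicle library 2 the changes of Pnpla5, Aadacl4 and Serpinb6e were 10.35, 9.7 and 10.33, without vehicle library 3 those of Awat1, Scd3 and Panx3 were 9.4, 8.34 and 11.09, and without vehicle library 1 that of Serpina3b was 9.52. Under the adipocyte covariate Scd3 changed by 8.68 and Panx3 by 9.97 (8.26 by limma-voom).

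Enzymes that make cholesterol and fatty acids rose with them. Of 20 tested, 12 rose and 0 fell (13 and 0 with the trend removed, 3 and 0 with the adipocyte covariate). Elovl6, which elongates palmitate, was at 9.48, 52.4 and 23.4 CPM under vehicle and 316, 435, 306 and 289 CPM under Wnt-C59. Elovl6 changed by 3.57 on the log2 scale (SE 0.48, adjusted p = 5.5e-05), and by 4.42 with the trend removed. This became 4.36 without vehicle library 2. Srebf1, the transcription factor that drives lipid synthesis, was at 65.5, 143 and 99.8 CPM under vehicle and 334, 398, 279 and 264 CPM under Wnt-C59. Srebf1 changed by 1.64 on the log2 scale (SE 0.25, adjusted p = 0.00011), and by 1.03 with the trend removed. Mvd, an enzyme of the mevalonate route, was at 23.02, 23.9 and 21.3 CPM under vehicle and 62.1, 91.8, 71.2 and 61.5 CPM under Wnt-C59. Mvd changed by 1.65 on the log2 scale (SE 0.27, adjusted p = 0.00018), and by 0.78 with the trend removed. Srebf1 lost its call with the adipocyte covariate (adjusted p = 0.08), and Elovl6 then changed by 2.63.

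Adipocyte genes were higher, with 11 of 15 up and 0 down (9 and 0 with the trend removed). Cidec, a coat protein of fat droplets, stood at 16.3, 70.2 and 56.7 CPM under vehicle and 321, 297, 111 and 356 CPM under Wnt-C59. Cidec changed by 2.51 on the log2 scale (SE 0.5, adjusted p = 0.001), and by 1.84 with the trend removed. Its lowest Wnt-C59 value came from library 4. Fabp4, the fatty acid carrier of fat cells, was at 188, 208 and 151 CPM under vehicle and 488, 626, 409.6 and 832 CPM under Wnt-C59. Fabp4 changed by 1.69 on the log2 scale (SE 0.3, adjusted p = 0.00035), and by 2.45 with the trend removed. Pnpla2, the lipase that starts fat breakdown, was at 96.5, 133 and 181 CPM under vehicle and 504, 564, 358 and 534 CPM under Wnt-C59. Pnpla2 changed by 1.84 on the log2 scale (SE 0.29, adjusted p = 0.00015), and by 1.09 with the trend removed. These 3 genes are members of the score used as covariate, so that fit says nothing about them. Skeletal muscle genes, which mark the muscle layer under the skin, overlapped between the groups in score, at 8.17 to 10.32 and 8.77 to 10.31, with 1 of 15 called.

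Genes of activated keratinocytes, which wounded and inflamed epidermis switches on, fell almost as a block. Of 18 tested, 16 fell and 0 rose (15 and 0 with the trend removed), with a median log2 change of -3.23. Without vehicle library 1 the count was 10, and with the adipocyte covariate 1. Krt6a, a keratin of wounded epidermis, stood at 5991, 2587 and 4826 CPM under vehicle and 1471, 490.5, 559 and 575 CPM under Wnt-C59. Krt6a changed by -2.53 on the log2 scale (SE 0.51, adjusted p = 0.001), and by -3.11 with the trend removed. The Wnt-C59 libraries lay between the vehicle values and the 294 ± 75.5 CPM of syngeneic skin. Ereg (epiregulin), a ligand of the EGF receptor, was at 68.1, 141 and 127 CPM under vehicle and 10.1, 8.98, 16.3 and 25.9 CPM under Wnt-C59. Ereg changed by -2.87 on the log2 scale (SE 0.34, adjusted p = 2.2e-05), and by -1.77 with the trend removed. All 4 Wnt-C59 libraries were at or below the syngeneic mean of 26.7 CPM. Serpinb3a, an inflammation-induced serpin with near-identical copies, was at 207, 13.6 and 56.7 CPM under vehicle and 2.31, 0.298, 0.104 and 0.665 CPM under Wnt-C59. Serpinb3a changed by -6.77 on the log2 scale (SE 1.1, adjusted p = 0.00034), and by -5.81 with the trend removed. The estimate was -5.37 without vehicle library 1 and -7.98 without Wnt-C59 library 1. S100a8, a calcium-binding alarmin of neutrophils and stressed keratinocytes, was at 1557, 24.2 and 172 CPM under vehicle and 16.1, 11.4, 3.02 and 1.81 CPM under Wnt-C59. S100a8 changed by -6.17 on the log2 scale (SE 1.3, adjusted p = 0.0017), and by -5.46 with the trend removed. It moved to -5.05 by limma-voom, -3.60 without vehicle library 1 and -6.76 without Wnt-C59 library 1.

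Among the genes named for the largest falls, Tmprss11b, a membrane serine protease of squamous epithelia, stood at 84.2, 3.23 and 23.1 CPM under vehicle and 0.359, 0.0496, 0 and 0 CPM under Wnt-C59. Tmprss11b changed by -8.43 on the log2 scale (SE 1.3, adjusted p = 0.00016), and by -7.30 with the trend removed. The change was -6.94 without vehicle library 1, -10.67 without Wnt-C59 library 1 and -7.37 with a muscle score as covariate. Prl2c3, a prolactin-family gene with near-identical copies, was at 77.8, 3.11 and 27.7 CPM under vehicle and 0.256, 0, 0 and 0.095 CPM under Wnt-C59. Prl2c3 changed by -8.59 on the log2 scale (SE 1.3, adjusted p = 0.00053), and by -7.71 with the trend removed. This became -7.36 without vehicle library 1 and -9.86 without Wnt-C59 library 1. In both, vehicle library 1 held the most and Wnt-C59 library 1 was the highest of its group. Neither was called with the adipocyte covariate (adjusted p = 0.23 and 0.19), nor was S100a8 (0.99).

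Differentiation genes of the upper epidermis fell in part and rose in none once the trend was removed. Of 20 tested, 8 fell and 4 rose as scaled, 8 fell and 0 rose with the trend removed, and with the adipocyte covariate 6 fell and 0 rose. As scaled, 1 rose without vehicle library 1 or Wnt-C59 library 4 and 2 without Wnt-C59 library 1. Dsc1, a desmosomal cadherin of the outer layers, stood at 469.6, 449 and 725 CPM under vehicle and 89.2, 55.4, 40.4 and 66.0 CPM under Wnt-C59. Dsc1 changed by -3.13 on the log2 scale (SE 0.34, adjusted p = 1.1e-05), and by -2.28 with the trend removed. As scaled, every Wnt-C59 library lay below the 278 ± 100.1 CPM of syngeneic skin. Rptn (repetin), a protein of the cornified layer, was at 833, 218 and 943 CPM under vehicle and 60.8, 11.1, 10.9 and 16.8 CPM under Wnt-C59. Rptn changed by -4.74 on the log2 scale (SE 0.69, adjusted p = 0.00015), and by -4.44 with the trend removed. The estimate was -5.69 without Wnt-C59 library 1. Hrnr (hornerin), of the same family, was at 437, 1406 and 1538 CPM under vehicle and 162, 49.4, 94.0 and 282 CPM under Wnt-C59. Hrnr changed by -2.94 on the log2 scale (SE 0.6, adjusted p = 0.0012), and by -2.19 with the trend removed. Klk7, a protease that sheds cornified cells, fell too (log2 change -1.12, SE 0.22, adjusted p = 0.00087, trend removed -1.33). Among 16 enzymes of the lipid barrier 6 rose and 6 fell (4 and 3 with the trend removed, 1 and 3 with the adipocyte covariate). The count up was 2 without vehicle library 1 and 3 without Wnt-C59 library 1. The ceramide enzyme Cers3 was at 85.0, 78.5 and 102 CPM under vehicle and 39.0, 28.7, 25.7 and 33.2 CPM under Wnt-C59. Cers3 changed by -1.49 on the log2 scale (SE 0.16, adjusted p = 1.2e-05), and by -1.24 with the trend removed. Ugcg fell too (log2 change -2.07, SE 0.23, adjusted p = 1.3e-05, trend removed -1.46), while Elovl1, which makes very long chain fatty acids, rose (log2 change 1.34, SE 0.28, adjusted p = 0.0011, trend removed 0.94).

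Basal layer genes moved both ways, with 4 up and 5 down of 13 (2 and 5 with the trend removed, 1 and 0 with the adipocyte covariate). Itga6, the integrin that anchors basal cells, fell (log2 change -1.32, SE 0.27, adjusted p = 0.0011, trend removed -1.19), and Krt5, a basal keratin, rose from 5660, 4977 and 5154 CPM under vehicle to 10390, 9642, 11960 and 9633 CPM under Wnt-C59 only as scaled (0.98, adjusted p = 0.0016, against 0.19, 0.44 with the trend removed). Calls of Krt6a, Serpinb3a, Rptn, Klk7, Elovl1, Itga6 and Krt5 were lost under the adipocyte covariate, with adjusted p between 0.053 (Krt5) and 0.39 (Krt6a), while Ereg changed by -3.47 and Hrnr by -4.24.

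**Figure D4:**
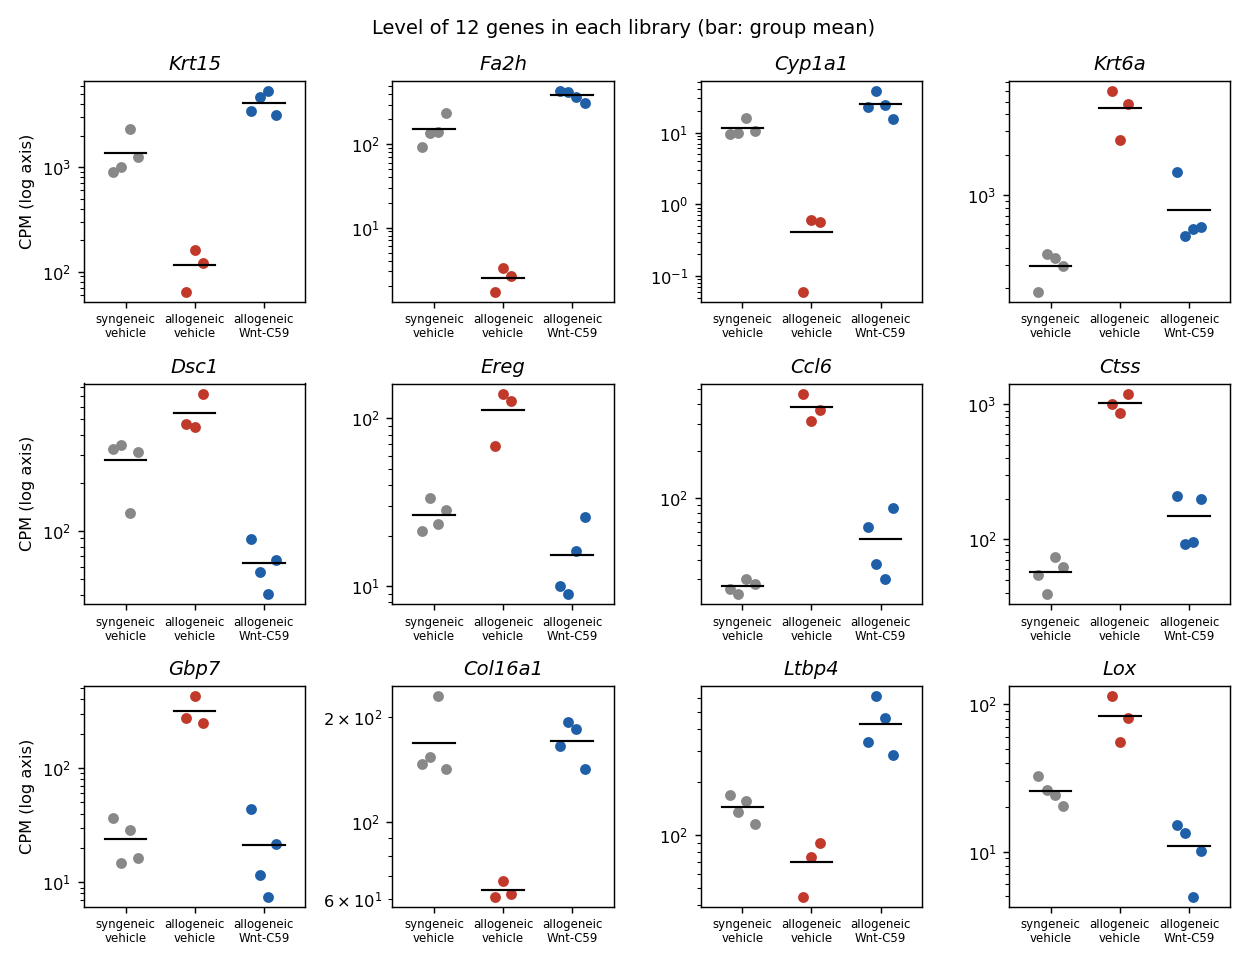
CPM as scaled, with the trend not removed (log axis), of 12 genes in the 4 syngeneic (grey), 3 vehicle allogeneic (red) and 4 Wnt-C59 libraries (blue), with bars at the group means. In each panel the vehicle and Wnt-C59 points do not overlap, and Krt15 under Wnt-C59 lies above all syngeneic libraries while Lox and Dsc1 lie below them.

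Myeloid chemokines fell as a group. Of 12 monocyte-attracting CC chemokines and their receptors, 12 fell (10 with the trend removed, 5 with the adipocyte covariate), with a median log2 change of -2.70. Ccl6 stood at 470.4, 315 and 369 CPM under vehicle and 64.5, 37.5, 29.8 and 86.2 CPM under Wnt-C59. Ccl6 changed by -2.82 on the log2 scale (SE 0.34, adjusted p = 2.7e-05), and by -2.54 with the trend removed. Ccl9 was at 269, 132 and 171 CPM under vehicle and 35.8, 27.0, 24.3 and 50.4 CPM under Wnt-C59 (log2 change -2.47, SE 0.36, adjusted p = 0.00011, trend removed -1.87); both attract myeloid cells, and in both the highest Wnt-C59 library was library 5. Ccr2, the receptor of inflammatory monocytes, stood at 52.9, 85.6 and 56.5 CPM under vehicle and 27.5, 13.0, 8.18 and 26.5 CPM under Wnt-C59 and was called as scaled (-1.79, SE 0.36, adjusted p = 0.001) and not with the trend removed (-0.51, adjusted p = 0.28). Chemokines that guide lymphocytes moved both ways, with 3 of 13 up and 3 down (2 and 3 with the trend removed, 2 and 1 with the adipocyte covariate, 6 up without vehicle library 2). Ccl17, a ligand of Ccr4 on skin T cells, fell from 6.5, 11.4 and 8.57 CPM under vehicle to 1.02, 0.744, 2.03 and 1.9 CPM under Wnt-C59 (log2 change -2.62, SE 0.63, adjusted p = 0.0032, trend removed -2.82), while Ccl19, a ligand of Ccr7, was at 0.486, 0.958 and 0.62 CPM under vehicle and 6.41, 14.5, 18.1 and 3.47 CPM under Wnt-C59. Ccl19 changed by 3.93 on the log2 scale (SE 0.73, adjusted p = 0.00061), and by 3.28 with the trend removed. Ccl27a, which keratinocytes make to draw skin-homing T cells, was at 3.1, 29.4 and 9.3 CPM under vehicle and 60.02, 71.6, 126 and 102 CPM under Wnt-C59. Ccl27a changed by 2.69 on the log2 scale (SE 0.66, adjusted p = 0.0045), and by 1.997 with the trend removed. Without vehicle library 2 its change was 3.86.

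The count of neutrophil genes turned on single vehicle libraries. As scaled 8 of 11 fell and 0 rose, but 2 fell without vehicle library 1, 10 without vehicle library 2 and 0 with the adipocyte covariate. The list's median log2 change was -3.20 as scaled and 1.91 with that covariate. The list's score was 4.3, -0.9 and 2.43 in the vehicle libraries and -1.47 to 0.44 in the Wnt-C59 libraries, so vehicle library 2 lay within the Wnt-C59 range. Cxcr2, the neutrophil chemokine receptor, stood at 30.7, 34.2 and 38.6 CPM under vehicle and 6.87, 5.01, 1.25 and 3.18 CPM under Wnt-C59. Cxcr2 changed by -3.08 on the log2 scale (SE 0.71, adjusted p = 0.0029), and by -2.85 with the trend removed. Here vehicle library 2 lay with the other vehicle libraries. Of 14 members of the interleukin-1 family and its receptors, 11 fell and 1 rose (8 and 1 with the trend removed, 3 and 0 with the adipocyte covariate). Il1rl1, the receptor of interleukin-33, was at 18.8, 7.3 and 17.9 CPM under vehicle and 1.69, 1.83, 1.98 and 3.42 CPM under Wnt-C59. Il1rl1 changed by -2.71 on the log2 scale (SE 0.39, adjusted p = 7.4e-05), and by -1.85 with the trend removed. The shared co-receptor Il1rap was at 78.2, 32.0 and 48.9 CPM under vehicle and 17.3, 13.6, 13.5 and 17.4 CPM under Wnt-C59. Il1rap changed by -1.78 on the log2 scale (SE 0.28, adjusted p = 0.00017), and by -0.90 with the trend removed. Il1a fell (log2 change -2.69, SE 0.53, adjusted p = 0.00085, trend removed -2.02), by 1.74 without vehicle library 1, and so did Il18bp, an interferon-induced decoy of interleukin-18, at 39.1, 38.3 and 34.0 CPM under vehicle and 19.9, 6.2, 8.59 and 12.2 CPM under Wnt-C59. Il18bp changed by -1.66 on the log2 scale (SE 0.34, adjusted p = 0.001), and by -1.86 with the trend removed. Of 11 acute-phase genes 1 rose and 4 fell, beside a background of 24.6% and 26.2% (1 and 3 with the trend removed, 0 and 2 with the adipocyte covariate). Saa3, a local acute-phase protein, stood at 563, 78.8 and 446 CPM under vehicle and 13.5, 2.13, 0.833 and 1.76 CPM under Wnt-C59. Saa3 changed by -6.31 on the log2 scale (SE 1.2, adjusted p = 0.0011), and by -6.38 with the trend removed. It moved to -7.84 without Wnt-C59 library 1. The adipocyte covariate ended the calls of Ccl9 (adjusted p = 0.061), Ccl27a (0.18), Cxcr2 (0.22), Il1rl1 (0.079), Il1rap (0.28), Il1a (0.29) and Saa3 (0.31), while Ccl17 changed by -3.46 and Ccr2 by -2.82.

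Guanylate-binding proteins, large GTPases that interferon-gamma induces against intracellular microbes, fell as a family, Gbp7 most firmly. The motif searched was GAAA, any 2 bases, then GAAA again, on either strand, the core of interferon response elements. The promoters of 4 members are shown because they carry it: lower case, 5′ to 3′, from RefSeq on build GRCm38.p6, 250 bases before to 50 after the start site on the plus strand, with each match to the motif in capitals. Their windows are chr3:142620413-142620712 (Gbp2), chr3:142559794-142560093 (Gbp3), chr3:142496684-142496983 (Gbp5) and chr3:142530086-142530385 (Gbp7), and the study's own counts were made on build GRCm39.
Gbp2: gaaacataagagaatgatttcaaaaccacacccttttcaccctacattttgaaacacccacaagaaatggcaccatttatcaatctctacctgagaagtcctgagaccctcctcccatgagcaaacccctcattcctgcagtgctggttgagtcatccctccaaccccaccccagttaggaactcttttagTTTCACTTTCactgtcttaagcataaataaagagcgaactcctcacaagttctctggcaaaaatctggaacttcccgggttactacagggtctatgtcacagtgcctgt
Gbp3: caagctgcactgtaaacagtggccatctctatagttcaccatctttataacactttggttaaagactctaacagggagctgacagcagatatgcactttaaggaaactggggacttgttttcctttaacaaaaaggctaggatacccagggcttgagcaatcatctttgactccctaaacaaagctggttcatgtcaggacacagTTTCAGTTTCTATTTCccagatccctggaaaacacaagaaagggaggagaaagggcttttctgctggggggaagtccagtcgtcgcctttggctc
Gbp5: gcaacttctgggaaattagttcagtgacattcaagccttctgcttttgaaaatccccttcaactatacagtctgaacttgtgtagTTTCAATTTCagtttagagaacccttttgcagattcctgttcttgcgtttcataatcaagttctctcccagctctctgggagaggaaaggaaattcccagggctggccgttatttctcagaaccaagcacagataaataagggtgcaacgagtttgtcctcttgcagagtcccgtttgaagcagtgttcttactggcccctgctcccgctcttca
Gbp7: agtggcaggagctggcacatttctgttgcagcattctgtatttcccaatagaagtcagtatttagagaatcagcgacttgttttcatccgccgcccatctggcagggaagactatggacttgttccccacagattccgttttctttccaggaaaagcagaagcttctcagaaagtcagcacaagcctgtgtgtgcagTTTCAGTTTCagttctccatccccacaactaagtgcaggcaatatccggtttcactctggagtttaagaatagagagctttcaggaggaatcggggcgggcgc

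The match begins 59 bases before the start site in Gbp2, 165 in Gbp5 and 53 in Gbp7, and Gbp3 has 2 overlapping matches from 45 bases before it. The motif was found in the promoters of 5 of the 5 guanylate-binding protein genes in the table, including Gbp2b, and of 5 of 6 immunity-related GTPases (not Ifi47). It was also found in 10 of 17 type I interferon-stimulated genes in the table, against 3.44% of all 32851 promoter windows and 3.99% of the 27025 genes with a window. It was not found in the 8 beta-catenin target genes or the 8 sebaceous gland genes with a promoter there. Of 499 tested genes with the motif, 30.5% were lower and 19.4% higher, and with the trend removed 19.8% were lower. These shares lie near the backgrounds of 26.2%, 24.6% and 18.4%. The beta-catenin partner motif CTTTGAT, found in 3.73% of windows, occurred in 1 of the 8 target genes (Sp5).

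Of 11 guanylate-binding proteins tested, 10 fell and 0 rose (6 and 0 with the trend removed, 6 and 0 with the adipocyte covariate, and 6 and 0 without vehicle library 2 or without Wnt-C59 library 4). Gbp7 stood at 274, 428 and 249 CPM under vehicle and 44.1, 11.6, 7.5 and 21.7 CPM under Wnt-C59. Gbp7 changed by -3.90 on the log2 scale (SE 0.57, adjusted p = 0.00014), and by -2.88 with the trend removed. Syngeneic skin held 24.1 ± 10.3 CPM. Gbp9 was at 92.7, 95.4 and 93.6 CPM under vehicle and 40.6, 13.0, 11.4 and 22.5 CPM under Wnt-C59. Gbp9 changed by -2.10 on the log2 scale (SE 0.42, adjusted p = 0.00097), and by -1.18 with the trend removed. In both, Wnt-C59 library 1 was the highest of its group and libraries 2 and 4 the lowest, and no library crossed to the other group. Gbp6 (-2.37, adjusted p = 0.0042) and Gbp10 (-2.83, 0.0051) fell with them (-1.50, adjusted p = 0.047, and -2.29, adjusted p = 0.021, with the trend removed), and without Wnt-C59 library 1 the changes of Gbp6, Gbp7 and Gbp10 were -3.08, -4.54 and -3.46, while without vehicle library 2 that of Gbp10 was -2.05. Of the others whose promoters are printed, Gbp5 stood at 94.2, 102 and 100.5 CPM under vehicle and 61.0, 17.1, 11.7 and 25.3 CPM under Wnt-C59. Gbp5 changed by -1.78 on the log2 scale (SE 0.58, adjusted p = 0.022), and by -1.79 with the trend removed. Gbp3 stood at 127, 236 and 115 CPM under vehicle and 97.1, 21.7, 23.2 and 57.7 CPM under Wnt-C59 (-1.68, SE 0.58, adjusted p = 0.029) and Gbp2 at 387, 306 and 349.8 CPM under vehicle and 283, 74.6, 82.8 and 126 CPM under Wnt-C59 (-1.30, SE 0.47, adjusted p = 0.032). Their calls are fragile: with the trend removed the adjusted p was 0.058 for Gbp3 and 0.057 for Gbp2. Leaving out 1 library ended the call of Gbp5 for vehicle library 2 or 3 or Wnt-C59 library 2, 4 or 5 (0.051 to 0.059), of Gbp3 for vehicle library 2 (0.13) or Wnt-C59 library 2 or 4 (0.07 and 0.074), and of Gbp2 for every library but Wnt-C59 library 1 (0.057 to 0.088); without Wnt-C59 library 1 Gbp5 changed by -2.45. A test without the filter on low counts also ended all 3 calls (0.057 to 0.079). Larger changes were fitted with the adipocyte covariate, at -5.28 for Gbp7, -2.84 for Gbp9, -3.87 for Gbp6, -4.74 for Gbp10, -3.45 for Gbp5 and -3.41 for Gbp3, and Gbp2 was not called (0.12). Reads of these near-identical genes may be shared between copies, so single values are uncertain.

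Other interferon lists differed in how many members fell. Of 15 genes of the interferon-gamma response, 9 fell and 0 rose as scaled and 10 and 0 with the trend removed (0 and 0 with the adipocyte covariate), and leaving out 1 library gave 6 (without Wnt-C59 library 4) to 12 (without Wnt-C59 library 1). Nos2, the inducible nitric oxide synthase, was at 59.8, 14.3 and 43.0 CPM under vehicle and 7.23, 1.98, 5.00 and 4.85 CPM under Wnt-C59. Nos2 changed by -3.03 on the log2 scale (SE 0.7, adjusted p = 0.0029), and by -3.36 with the trend removed. Of 7 immunity-related GTPases, which act beside the guanylate-binding proteins, 4 fell as scaled and 0 with the trend removed; the count was 1 without vehicle library 2 or Wnt-C59 library 4, 2 without vehicle library 1, and 7 without Wnt-C59 library 1. Iigp1 stood at 575, 898 and 509 CPM under vehicle and 262, 33.7, 25.7 and 122 CPM under Wnt-C59, and its fall (-2.58, adjusted p = 0.0082, -3.45 without Wnt-C59 library 1) was not called with the trend removed (0.063). Of 22 genes that type I interferon induces, 3 fell and 0 rose, below the background of 26.2%, and 0 were called with the trend removed or without vehicle library 2, 1 without vehicle library 1 or Wnt-C59 library 4, and 7 without Wnt-C59 library 1. Ifit2 was at 20.7, 50.05 and 36.1 CPM under vehicle and 17.4, 5.85, 3.59 and 10.7 CPM under Wnt-C59 (-1.92, adjusted p = 0.014), and was not called with the trend removed (0.12) or without vehicle library 2 (0.065). Jak2, the kinase of the interferon-gamma receptor, fell from 139, 73.1 and 123 CPM under vehicle to 36.8, 32.3, 32.5 and 34.5 CPM under Wnt-C59 (log2 change -1.72, SE 0.21, adjusted p = 2.6e-05, trend removed -0.99), but the calls of Jak2 and Nos2 did not hold with the adipocyte covariate (adjusted p = 0.065 and 0.34). Iigp1 and Ifit2 then changed by -4.5 and -4.13. Of 17 genes of MHC class I and antigen processing 1 rose and 3 fell, and of 11 MHC class II presentation genes 0 rose and 2 fell, shares below the background. With the trend removed the counts were 0 and 1, and 0 and 2, and with the adipocyte covariate 0 and 2, and 0 and 1. Class I rises numbered 0 to 3 with 1 library left out. The largest of these falls was Ctss (cathepsin S), the protease that trims the class II invariant chain, at 1000, 856 and 1203 CPM under vehicle and 209, 91.5, 94.4 and 197 CPM under Wnt-C59. Ctss changed by -2.78 on the log2 scale (SE 0.35, adjusted p = 2.9e-05), and by -2.59 with the trend removed. The change was -3.52 with the adipocyte covariate.

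**Figure D5:**
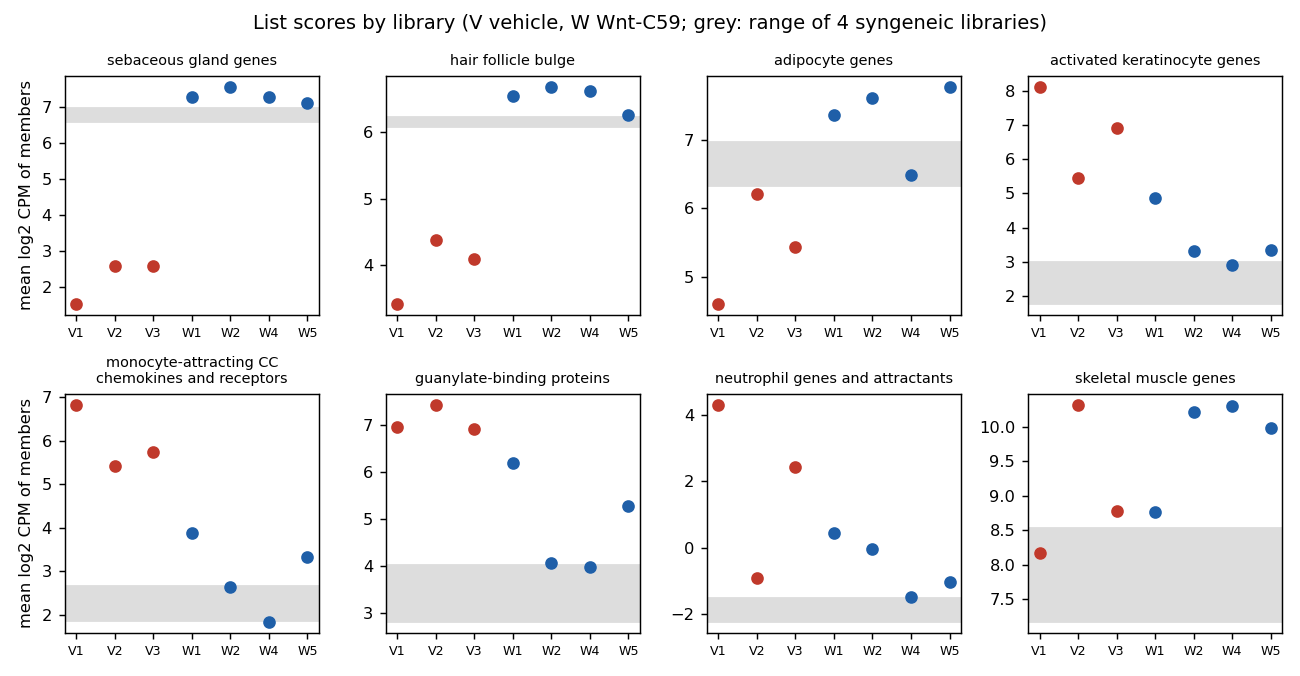
Score (mean log2 CPM of the members tested) of 8 gene lists in each vehicle (V, red) and Wnt-C59 library (W, blue), with the range of the 4 syngeneic libraries in grey. Sebaceous, bulge, adipocyte, activated keratinocyte, CC chemokine and guanylate-binding protein scores do not overlap between the groups, while neutrophil and skeletal muscle scores do.

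T cell genes were lower. Of 18 tested, 11 fell and 0 rose in each fit (9 of them in both); the count was 4 without vehicle library 3 and 1 with the adipocyte covariate. Cd3e, part of the T cell receptor complex, stood at 10.7, 8.32 and 12.9 CPM under vehicle and 5.54, 3.62, 3.33 and 3.23 CPM under Wnt-C59. Cd3e changed by -1.44 on the log2 scale (SE 0.33, adjusted p = 0.0025), and by -1.12 with the trend removed. Every Wnt-C59 library lay between the vehicle values and the 1.25 ± 0.42 CPM of syngeneic skin. Cd4 was at 15.1, 11.7 and 20.6 CPM under vehicle and 8.61, 8.28, 5.94 and 8.7 CPM under Wnt-C59. Cd4 changed by -1.004 on the log2 scale (SE 0.25, adjusted p = 0.0042), and by -1.33 with the trend removed. The costimulatory receptor Cd28 was at 4.5, 4.25 and 8.29 CPM under vehicle and 1.02, 0.744, 0.26 and 0.998 CPM under Wnt-C59. Cd28 changed by -2.90 on the log2 scale (SE 0.5, adjusted p = 0.00031), and by -1.997 with the trend removed. Of 13 cytotoxic lymphocyte genes 10 fell and 0 rose (8 and 0 with the trend removed, 2 and 0 with the adipocyte covariate). Gzma (granzyme A) was at 19.3, 2.87 and 11.9 CPM under vehicle and 1.38, 0.893, 0.677 and 0.665 CPM under Wnt-C59. Gzma changed by -3.64 on the log2 scale (SE 0.77, adjusted p = 0.0014), and by -3.16 with the trend removed. This became -3.03 without vehicle library 1. Nkg7, a granule protein, was at 13.1, 11.3 and 19.7 CPM under vehicle and 6.97, 2.58, 2.76 and 5.66 CPM under Wnt-C59. Nkg7 changed by -1.71 on the log2 scale (SE 0.38, adjusted p = 0.0017), and by -2.07 with the trend removed. The death ligand Fasl fell too (log2 change -2.22, SE 0.5, adjusted p = 0.0022, trend removed -1.83).

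Costimulation and checkpoint genes were not uniform. Of 15 tested, 8 fell and 2 rose (9 and 2 with the trend removed, 1 and 2 with the adipocyte covariate). Cd80, a ligand of Cd28 on antigen-presenting cells, stood at 11.4, 5.45 and 8.29 CPM under vehicle and 1.69, 1.19, 0.833 and 1.95 CPM under Wnt-C59. Cd80 changed by -2.56 on the log2 scale (SE 0.38, adjusted p = 9.9e-05), and by -1.99 with the trend removed. The inhibitory receptor Tigit was at 2.79, 2.27 and 5.13 CPM under vehicle and 0.564, 0.298, 0.156 and 0.808 CPM under Wnt-C59. Tigit changed by -2.88 on the log2 scale (SE 0.5, adjusted p = 3e-04), and by -3.19 with the trend removed. The 2 that rose, Tnfrsf4 and Tnfrsf18, were both costimulators of the tumour necrosis factor receptor family. Tnfrsf4 (OX40) was at 6.38, 5.81 and 5.24 CPM under vehicle and 13.4, 13.8, 22.6 and 15.6 CPM under Wnt-C59. Tnfrsf4 changed by 1.49 on the log2 scale (SE 0.25, adjusted p = 0.00026), and by 0.95 with the trend removed. Tnfrsf18 (GITR) was at 12.3, 21.0 and 10.9 CPM under vehicle and 46.4, 55.1, 93.3 and 49.3 CPM under Wnt-C59. Tnfrsf18 changed by 2.05 on the log2 scale (SE 0.36, adjusted p = 0.00041), and by 1.44 with the trend removed. Both lay above the syngeneic means of 4.73 ± 1.15 CPM and 24.5 ± 7.29 CPM. Under the adipocyte covariate the calls of Cd3e (adjusted p = 0.083), Cd4 (0.14), Cd28 (0.062), Gzma (0.22), Fasl (0.33) and Cd80 (0.087) were lost, while those of Nkg7 (-2.53), Tigit (-3.86), Tnfrsf4 and Tnfrsf18 held.

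Macrophage genes fell in 15 of 18 tested and rose in 1 (16 and 1 with the trend removed, 5 and 1 with the adipocyte covariate). C1qa, a complement chain that tissue macrophages make, was at 393, 378 and 404 CPM under vehicle and 158, 124, 96.9 and 159 CPM under Wnt-C59. C1qa changed by -1.54 on the log2 scale (SE 0.32, adjusted p = 0.0011), and by -2.33 with the trend removed. The single member that rose was Il34, a ligand of the macrophage receptor Csf1r that keratinocytes make. It stood at 11.4, 30.7 and 15.7 CPM under vehicle and 88.7, 107, 126 and 107 CPM under Wnt-C59. Il34 changed by 2.48 on the log2 scale (SE 0.33, adjusted p = 4.5e-05), and by 1.73 with the trend removed. Every Wnt-C59 library lay above the syngeneic mean of 33.5 CPM. Of 7 Fc receptors 5 fell and 0 rose in both fits and 0 were called with the adipocyte covariate. The inhibitory IgG receptor Fcgr2b was at 474, 209 and 471 CPM under vehicle and 106, 65.4, 56.9 and 78.8 CPM under Wnt-C59. Fcgr2b changed by -2.32 on the log2 scale (SE 0.33, adjusted p = 7.3e-05), and by -1.997 with the trend removed. The activating Fcgr3 was at 249.8, 112 and 188 CPM under vehicle and 59.6, 34.7, 33.7 and 51.5 CPM under Wnt-C59. Fcgr3 changed by -2.03 on the log2 scale (SE 0.32, adjusted p = 0.00017), and by -2.13 with the trend removed. Their signal chain Fcer1g fell as well (log2 change -1.68, SE 0.31, adjusted p = 5e-04, trend removed -1.88). Of 11 complement genes 2 rose and 3 fell, beside a background of 24.6% and 26.2% (1 and 4 with the trend removed, 0 and 1 with the adipocyte covariate). Among the falls, C3ar1, the receptor of the complement fragment C3a, was at 75.1, 48.6 and 87.1 CPM under vehicle and 25.8, 13.3, 8.38 and 21.2 CPM under Wnt-C59. C3ar1 changed by -2.03 on the log2 scale (SE 0.34, adjusted p = 0.00024), and by -1.32 with the trend removed.

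Of 10 alternative activation genes, which interleukin-4 and interleukin-13 induce in macrophages, 4 fell and 0 rose in both fits, and 0 were called with the adipocyte covariate. Chil3, a chitinase-like protein, stood at 1362, 97.7 and 1434 CPM under vehicle and 18.3, 10.0, 0.99 and 1.14 CPM under Wnt-C59. Chil3 changed by -6.99 on the log2 scale (SE 1.4, adjusted p = 0.0016), and by -6.68 with the trend removed. The estimate was -7.89 without Wnt-C59 library 1. Its near-identical neighbour Chil4 was at 583, 13.0 and 351 CPM under vehicle and 0, 0, 0 and 0 CPM under Wnt-C59, so that with 3 counts per library as the floor it was at least 2100-fold lower under Wnt-C59, although vehicle library 2 held far less of both than the other vehicle libraries. Clec10a, a lectin of dermal macrophages and dendritic cells, was at 282, 81.8 and 311 CPM under vehicle and 45.2, 46.8, 37.0 and 53.1 CPM under Wnt-C59. Clec10a changed by -2.30 on the log2 scale (SE 0.49, adjusted p = 0.0016), and by -2.52 with the trend removed. Mast cell genes fell in 6 of 12 and rose in 1 (4 and 1 with the trend removed, 0 and 0 with the adipocyte covariate): the tryptase Tpsb2 was at 32.2, 27.0 and 48.1 CPM under vehicle and 17.8, 2.63, 5.83 and 7.08 CPM under Wnt-C59. Tpsb2 changed by -2.10 on the log2 scale (SE 0.49, adjusted p = 0.0029), and by -2.79 with the trend removed. It moved to -2.79 without Wnt-C59 library 1. The member that rose, the mast cell receptor Mrgprb2, was at 1.52, 1.38 and 1.52 CPM under vehicle and 5.79, 6.2, 5.36 and 4.8 CPM under Wnt-C59. Mrgprb2 changed by 1.91 on the log2 scale (SE 0.37, adjusted p = 0.00066), and by 2.93 with the trend removed. Dendritic and Langerhans cell genes rose in 4 of 12, near the background of 24.6%, and fell in 0 (5 and 0 with the trend removed, 0 and 0 with the adipocyte covariate, 2 up without vehicle library 1), among them the cytokine receptor Flt3 (log2 change 1.83, SE 0.42, adjusted p = 0.0024, trend removed 1.72). Adhesion genes that hold leukocytes in tissue fell in 5 of 10 (6 with the trend removed, 1 with the adipocyte covariate). Vcam1, which leukocytes bind on activated endothelium, was at 126, 59.8 and 118 CPM under vehicle and 28.9, 12.5, 9.89 and 18.2 CPM under Wnt-C59. Vcam1 changed by -2.55 on the log2 scale (SE 0.42, adjusted p = 0.00025), and by -1.58 with the trend removed. Its integrin partner Itga4 was at 21.0, 38.0 and 39.6 CPM under vehicle and 7.18, 4.51, 5.1 and 9.12 CPM under Wnt-C59. Itga4 changed by -2.34 on the log2 scale (SE 0.34, adjusted p = 8e-05), and by -0.93 with the trend removed. Under the adipocyte covariate, Fcgr2b, Fcgr3, Fcer1g, Clec10a, Chil3, Chil4, Tpsb2, Mrgprb2, Flt3 and Vcam1 lost their calls, with adjusted p between 0.058 (Chil4) and 0.44 (Chil3), whereas C1qa (-2.35), Il34 (1.75), C3ar1 (-2.70) and Itga4 (-3.01) kept theirs.

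Collagen genes moved both ways. Of 41 tested, 11 rose and 5 fell (13 and 6 with the trend removed, 2 and 2 with the adipocyte covariate), beside a background of 24.6% and 26.2%. Col1a1, the main chain of dermal collagen I, stood at 538, 304 and 333 CPM under vehicle and 1144, 2025, 1725 and 1076 CPM under Wnt-C59. Col1a1 changed by 1.93 on the log2 scale (SE 0.45, adjusted p = 0.0026), and by 1.49 with the trend removed. Syngeneic skin held 2115 ± 1178 CPM. Col3a1 was at 1014, 435 and 499 CPM under vehicle and 1172, 1130, 1079 and 1302 CPM under Wnt-C59, and its call (0.85, adjusted p = 0.033) was lost with the trend removed (0.064), in the 7 libraries alone (0.052), without vehicle library 2 or 3 (0.16 each) and without Wnt-C59 library 1 (0.053), 2 (0.05) or 5 (0.067). Col16a1, a minor collagen of the dermis, was at 61.1, 67.6 and 62.2 CPM under vehicle and 166, 194, 185 and 142 CPM under Wnt-C59, with little spread in either group (log2 change 1.43, SE 0.2, adjusted p = 6.2e-05, trend removed 0.85). Col6a1, of the microfibrils around cells, rose (log2 change 1.40, SE 0.27, adjusted p = 0.00072, trend removed 0.86), and the largest rise in the list was that of Col8a2, a short-chain collagen. Its level was 0.304, 2.33 and 0.846 CPM under vehicle and 18.9, 22.8, 20.6 and 15.8 CPM under Wnt-C59. Col8a2 changed by 4.06 on the log2 scale (SE 0.47, adjusted p = 1.6e-05), and by 3.44 with the trend removed. The change was 5.06 without vehicle library 2. The 5 that fell, in both fits, were Col8a1, Col12a1, Col24a1, Col25a1 and Col28a1. Col8a1, the other chain of its type, was at 13.2, 31.9 and 9.98 CPM under vehicle and 6.66, 2.73, 2.81 and 5.13 CPM under Wnt-C59. Col8a1 changed by -2.08 on the log2 scale (SE 0.44, adjusted p = 0.0013), and by -1.66 with the trend removed. Without vehicle library 2 it was -1.42, and -2.73 with the adipocyte covariate.

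Genes of collagen processing also moved both ways. Lox (lysyl oxidase), which crosslinks collagen and elastin, stood at 114, 55.6 and 80.2 CPM under vehicle and 15.1, 13.4, 4.95 and 10.0 CPM under Wnt-C59. Lox changed by -2.94 on the log2 scale (SE 0.33, adjusted p = 1.3e-05), and by -2.24 with the trend removed. As scaled, every Wnt-C59 library lay below the 25.8 ± 5.00 CPM of syngeneic skin. Its relative Loxl1 was at 29.3, 31.0 and 24.8 CPM under vehicle and 55.5, 104, 106 and 83.6 CPM under Wnt-C59. Loxl1 changed by 1.62 on the log2 scale (SE 0.3, adjusted p = 0.00057), and by 0.72 (not called) with the trend removed. The call of Loxl1 was lost with the trend removed (adjusted p = 0.055) and with the adipocyte covariate (0.065). Pcolce, which speeds the cutting of procollagen, was at 42.4, 39.6 and 35.0 CPM under vehicle and 117, 186, 178 and 122 CPM under Wnt-C59. Pcolce changed by 1.95 on the log2 scale (SE 0.32, adjusted p = 0.00023), and by 1.31 with the trend removed. Over the 19 genes of this list, 8 rose and 3 fell as scaled, 3 rose and 4 fell with the trend removed, and 2 rose and 1 fell with the adipocyte covariate. Elastic fibre genes rose in 10 of 16 and fell in 0 (9 and 1 with the trend removed, 6 and 0 with the adipocyte covariate). Ltbp4, which tethers latent TGF-beta and guides elastic fibre assembly, was at 44.9, 75.3 and 90.6 CPM under vehicle and 338, 613, 461 and 284 CPM under Wnt-C59. Ltbp4 changed by 2.59 on the log2 scale (SE 0.3, adjusted p = 1.8e-05), and by 2.04 with the trend removed. Ltbp2 was at 13.8, 15.2 and 13.8 CPM under vehicle and 54.3, 62.7, 66.4 and 50.1 CPM under Wnt-C59. Ltbp2 changed by 2.03 on the log2 scale (SE 0.23, adjusted p = 1.4e-05), and by 1.73 with the trend removed. Mfap4, a fibre-associated protein, was at 8.81, 12.2 and 6.31 CPM under vehicle and 40.0, 91.5, 224 and 84.6 CPM under Wnt-C59. Mfap4 changed by 3.60 on the log2 scale (SE 0.52, adjusted p = 0.00012), and by 3.06 with the trend removed. This became 2.98 without Wnt-C59 library 4. Eln (elastin) rose as well (log2 change 1.97, SE 0.3, adjusted p = 0.00013, trend removed 1.28).

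Small leucine-rich proteoglycans, which organise collagen fibrils, rose in 6 of 11 and fell in 1 (9 and 1 with the trend removed, 0 and 0 with the adipocyte covariate). Fmod (fibromodulin) stood at 2.005, 18.3 and 16.7 CPM under vehicle and 85.0, 86.0, 115 and 79.4 CPM under Wnt-C59. Fmod changed by 2.89 on the log2 scale (SE 0.53, adjusted p = 0.00062), and by 2.43 with the trend removed. Podn (podocan) was at 9.6, 8.62 and 12.6 CPM under vehicle and 42.3, 158, 67.9 and 32.6 CPM under Wnt-C59. Podn changed by 2.87 on the log2 scale (SE 0.47, adjusted p = 0.00024), and by 2.23 with the trend removed. The estimate was 2.21 without Wnt-C59 library 2. The exception, Podnl1, a relative of podocan, was at 5.22, 1.44 and 4.12 CPM under vehicle and 1.33, 1.09, 0.677 and 0.76 CPM under Wnt-C59. Podnl1 changed by -1.89 on the log2 scale (SE 0.41, adjusted p = 0.0015), and by -2.70 with the trend removed. Matrix proteases and inhibitors fell in 7 of 19 and rose in 2 (10 and 2 with the trend removed, 0 and 0 with the adipocyte covariate). Mmp12, an elastase of macrophages, was at 235, 39.2 and 292 CPM under vehicle and 9.12, 3.82, 6.04 and 19.1 CPM under Wnt-C59. Mmp12 changed by -4.31 on the log2 scale (SE 0.76, adjusted p = 0.00058), and by -3.29 with the trend removed. It moved to -4.90 without Wnt-C59 library 5. Mmp19 fell too (log2 change -1.64, SE 0.35, adjusted p = 0.0016, trend removed -1.68), and so did Adamts9, which cleaves versican (log2 change -2.16, SE 0.32, adjusted p = 9e-05, trend removed -1.68).

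TGF-beta genes were mostly not called: of 18, 2 rose and 5 fell (3 and 6 with the trend removed, 1 and 3 with the adipocyte covariate). Skil, a target and brake of the pathway, stood at 122, 58.2 and 105 CPM under vehicle and 14.2, 10.4, 9.89 and 17.5 CPM under Wnt-C59. Skil changed by -2.87 on the log2 scale (SE 0.26, adjusted p = 4.1e-06), and by -1.62 with the trend removed. The target Pmepa1 was at 110.5, 83.0 and 112 CPM under vehicle and 56.0, 34.9, 35.6 and 41.1 CPM under Wnt-C59. Pmepa1 changed by -1.28 on the log2 scale (SE 0.22, adjusted p = 0.00028), and by -1.58 with the trend removed. The receptor Tgfbr1 fell (log2 change -1.91, SE 0.19, adjusted p = 7.8e-06, trend removed -0.73). Ccn2 (connective tissue growth factor), another target, was at 38.9, 34.2 and 58.4 CPM under vehicle and 148, 100.5, 152 and 97.4 CPM under Wnt-C59. Ccn2 changed by 1.51 on the log2 scale (SE 0.26, adjusted p = 0.00031), and by 1.35 with the trend removed. Every Wnt-C59 library lay above the 39.6 ± 10.2 CPM of syngeneic skin. Contractile genes, which mark smooth muscle and myofibroblasts, rose in 9 of 16 and fell in 3 (6 and 2 with the trend removed, 2 and 1 with the adipocyte covariate). Acta2 (smooth muscle actin) was at 129, 188 and 185 CPM under vehicle and 508, 509.8, 584 and 359 CPM under Wnt-C59. Acta2 changed by 1.55 on the log2 scale (SE 0.3, adjusted p = 0.00062), and by 1.37 with the trend removed. The myosin light chain Myl9 was at 35.7, 62.4 and 62.6 CPM under vehicle and 253, 289.5, 309 and 175 CPM under Wnt-C59. Myl9 changed by 2.26 on the log2 scale (SE 0.31, adjusted p = 5.3e-05), and by 1.58 with the trend removed. Cnn1 (calponin) rose (log2 change 1.71, SE 0.32, adjusted p = 0.00057, trend removed 1.37), while Vcl (vinculin), which links actin to adhesion sites, fell (log2 change -1.82, SE 0.21, adjusted p = 1.6e-05, trend removed -1.52). Dermal fibroblast genes rose in 8 of 16 and fell in 0 (5 and 0 with the trend removed or without Wnt-C59 library 2, 1 and 0 with the adipocyte covariate). Pi16, a marker of adventitial fibroblasts, stood at 24.0, 29.3 and 18.8 CPM under vehicle and 108, 530.4, 424 and 179.7 CPM under Wnt-C59. Pi16 changed by 3.69 on the log2 scale (SE 0.66, adjusted p = 0.00052), and by 3.22 with the trend removed. Dpt (dermatopontin) was at 63.9, 74.6 and 58.8 CPM under vehicle and 114, 245, 251 and 249.6 CPM under Wnt-C59. Dpt changed by 1.71 on the log2 scale (SE 0.29, adjusted p = 3e-04), and by 1.61 with the trend removed. Library 1 was the lowest Wnt-C59 library in both. The calls of Col1a1, Col3a1, Col6a1, Eln, Fmod, Podn, Podnl1, Mmp12, Mmp19, Adamts9, Acta2 and Dpt did not hold with the adipocyte covariate, with adjusted p between 0.052 (Podn and Eln) and 0.46 (Podnl1), and Col8a2 changed by 3.21. Some of these uncalled changes kept their size (Col1a1 1.84, Col3a1 1.12, Mmp12 -4.49) and others were smaller (Fmod 1.99, Podnl1 -0.96).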

How the data were processed

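RNA of 15 skin libraries was measured by sequencing. The authors deposited a gene table of estimated counts, many of them not whole. Per the submitters' processing notes FastQC, Trim Galore, HISAT2 and featureCounts were used with build GRCm39, and which tool wrote the table is not given in the sources used here. Strandedness is not stated, so overlapping genes may share reads. Libraries were matched to groups by column names, whose numbers name them here; the 4 combination columns were matched by elimination.

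The estimated counts were rounded and tested with edgeR 4.0.16 in R 4.3.3 (TMM, filterByExpr, quasi-likelihood test, prior count 2 for log values, Benjamini-Hochberg over 18651 genes, called at an adjusted p under 0.05). All 15 libraries shared 1 estimate of spread and entered the filter, the scaling and the gene means from which the trend was taken. Symbols came from GENCODE M21 (51276 of 56059 IDs, 91.5%), as did GC content and length, whose trend was removed with splines of 5 df; that annotation is of GRCm38. Promoters are RefSeq GRCm38.p6. Alternatives were DESeq2 1.42.0, limma 3.58.1, other scalings, filters and covariates, and each library left out. The scripts were tested on simulated data.

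Genes named are the 12 largest rises and 12 largest falls (called in both fits, at least 5 CPM in the higher group, no overlap), up to 4 called members of each list by adjusted p, and genes fixed by name, of which some are left out. C1qa, Col8a1, Gbp2, Gbp3, Gbp5, Gli1, Krt5, Krt25, Krt28, Krt71, Mc5r, Shh, Sox9 and Xist were chosen after their values were seen. The members and lists were chosen with earlier results of these data known.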

Additional observations from a re-analysis of the deposited data

Results flagged for a closer look

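In the 4 Wnt-C59 libraries, 13 of the 163 genes tested had 1 library whose gap to the nearest other passed Dixon's 95% limit for 4 samples. Chance passes it in about 1 of 20 groups of independent, normally distributed values. CPM of related genes are not such values, so the count of flags cannot be read against that rate. Library 1 stood apart in 7 of them: it was the highest for Krt6a (1471 CPM), Rptn (60.8 CPM), Saa3 (13.5 CPM), Lef1 (5.95 CPM), Cd3e (5.54 CPM) and Tmprss11b (0.359 CPM), and the lowest for Dpt (114.5 CPM). Of these, Krt6a, Rptn, Saa3, Cd3e and Tmprss11b were higher under vehicle, and Dpt lower, so in these genes library 1 lay nearest to vehicle. Library 5 stood apart for Dkk3 (46.9 CPM), Il1rl1 (3.42 CPM) and Krt25 (0.0951 CPM, the single Wnt-C59 library with any count). Library 4 stood apart for Cd4 (5.94 CPM) and for the liver genes Alb (1184 CPM) and Ttr (76.6 CPM). These flags carry no test of their own.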

How the results depend on the processing

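The count of 9481 genes called ran from 8960 to 9877 under other scalings, filters, tools and sets of libraries that keep all 7 and every gene type, was 8159 of 15522 among protein-coding genes, 7123 with the trend removed and 2788 with the adipocyte covariate. Leaving out 1 library gave 7942 to 9295. The share of calls that were higher stayed between 45.0 and 52.5%. Column numbers do not pair the samples (correlations of deviations 0.141 and 0.046), and the fit with them as a replicate block gave 8374 calls. Without the 4 libraries matched by elimination 9432 were called; this and the protein-coding set were chosen after seeing the data.

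Of 154 single genes examined and called, 69 lost the call with the adipocyte covariate, 13 with the trend removed and 0 to 7 under each other alternative. Calls lost with the adipocyte covariate did not always come with a smaller change (Mmp12 -4.49 against -4.31 as scaled, but Saa3 -3.50 against -6.31). Values that changed sign were all of genes not called as scaled: Wls (-0.02) was 0.69 with the trend removed, 0.01 without a filter, 0.02 with a muscle score and between -0.08 and 0.06 with 1 library left out. With the adipocyte covariate Axin2 was -0.04, Lgr5 -0.54 and Shh -1.34, and Shh was -0.98 in the replicate block. The causes were not tested. Depth limits what can be said of genes under about 1 CPM.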

Other observations

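Gene groups outside the comparisons above moved as follows, read against backgrounds of 24.6% higher and 26.2% lower (19.8% and 18.4% with the trend removed, 7.85% and 7.09% with the adipocyte covariate). Of 12 targets of the aryl hydrocarbon receptor and NRF2, 2 rose and 3 fell (3 and 4 with the trend removed, 1 and 0 with the adipocyte covariate). Cyp1a1, the classical target of that receptor, stood at 0.0607, 0.599 and 0.564 CPM under vehicle and 22.9, 37.8, 24.1 and 15.4 CPM under Wnt-C59. Cyp1a1 changed by 5.91 on the log2 scale (SE 0.57, adjusted p = 6.1e-06), and by 5.74 with the trend removed. Syngeneic skin held 11.4 ± 2.96 CPM, and 3 Wnt-C59 libraries lay above every syngeneic library. Of 10 IGF ligands and binding proteins, 6 rose and 3 fell as scaled, and 2 and 1 both with the trend removed and with the adipocyte covariate. Igfbp4, a binding protein, stood at 59.96, 82.3 and 58.8 CPM under vehicle and 234, 201, 255 and 248 CPM under Wnt-C59. Igfbp4 changed by 1.81 on the log2 scale (SE 0.24, adjusted p = 4.6e-05), and by 1.33 with the trend removed.

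Immediate early genes, which cells switch on within minutes of a stimulus, rose in 4 of 16 and fell in 2 (2 and 4 with the trend removed, 2 and 0 with the adipocyte covariate). Egr1 stood at 63.6, 47.5 and 55.5 CPM under vehicle and 239.8, 117, 106 and 145 CPM under Wnt-C59. Egr1 changed by 1.45 on the log2 scale (SE 0.25, adjusted p = 0.00027), and by 0.94 with the trend removed. The AP-1 member Fosl2 was at 282, 154 and 318 CPM under vehicle and 84.6, 65.5, 54.7 and 67.3 CPM under Wnt-C59. Fosl2 changed by -1.88 on the log2 scale (SE 0.24, adjusted p = 2.9e-05), and by -1.80 with the trend removed. Fosl2 was not called with that covariate (adjusted p = 0.07). Of 23 cell cycle genes, 5 rose and 6 fell (5 and 4 with the trend removed, 1 and 0 with the adipocyte covariate). The rises were Mcm2, Mcm3, Mcm5, Mcm7 and Cdc45, which act at replication origins, and numbered 3 without vehicle library 3. Mki67, a marker of dividing cells, stood at 198, 82.5 and 133 CPM under vehicle and 35.9, 27.97, 24.0 and 41.0 CPM under Wnt-C59. Mki67 changed by -2.10 on the log2 scale (SE 0.41, adjusted p = 0.00091), and by -1.27 with the trend removed. It was not called lower with the adipocyte covariate.

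Markers of other cell types also moved. Schwann cell genes rose in 4 of 8 and fell in 1 (2 and 0 with the trend removed, 2 and 1 with the adipocyte covariate, 6 up without vehicle library 2). Red cell genes rose in 4 of 5 (1 with the trend removed or without vehicle library 2 or Wnt-C59 library 4, 2 without vehicle library 1). With the adipocyte covariate 0 red cell genes rose. The summed level of Hbb-bs, Hbb-bt and Alas2 was 24.4 to 130 CPM under vehicle and 134 to 328 CPM under Wnt-C59. Of 12 melanocyte genes 1 rose and 1 fell (0 and 0 with the trend removed, 1 and 0 with the adipocyte covariate). Of 89 cytosolic ribosomal protein genes (matched by symbol, which also takes ribosomal kinases), 9 rose and 19 fell (6 and 28 with the trend removed, 3 and 2 with the adipocyte covariate, 4 to 9 and 12 to 26 with 1 library left out). Of 74 nuclear-encoded subunits of oxidative phosphorylation 15 rose and 9 fell (13 and 7, 0 and 2, and 9 to 23 and 3 to 14, in the same order).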
